A study of Arabidopsis thaliana with 18 samples.

Results

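The transcriptomes of als3-1 and sog1-7 seedlings of Arabidopsis thaliana were compared in the absence of added aluminium. The comparison used 6 of the 18 libraries of the study, 3 of als3-1 and 3 of sog1-7, chosen by their labels of genotype and 0 mM AlCl3, and every gene of the count tables was considered. All 18 libraries came from whole seedlings of the Col-0 ecotype that were grown at 20 °C in continuous light on soaked gel medium of pH 4.2 and harvested 84 h after sowing. The other groups were wild type at 0 mM and all 3 genotypes at 1.5 mM AlCl3, again with 3 libraries each. als3-1 is a mutant of ALS3, and the study describes sog1-7 as a loss-of-function allele of SOG1 that tolerates aluminium. The labels give no lesion, no line history and do not state whether replicates of a group are separate cultures. A p-value here therefore weighs a difference against the spread of libraries within groups, taken over all 18 libraries. That spread may be technical. Replicates carry the numbers 2, 3 and 4 in every group.

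Aluminium ions become soluble in acid soil and stop root growth. ALS3 forms an ABC transporter complex with STAR1, and mutants in either gene are hypersensitive to aluminium in roots. SOG1 is a NAC transcription factor that ATM and ATR activate after DNA damage and that switches on genes of repair and of cell cycle arrest. The zinc-finger factor STOP1 is a central regulator of tolerance to acid and to aluminium, and its best known target, ALMT1, encodes the root channel that releases malate to chelate aluminium outside the cell. In roots short of iron, the bHLH factor FIT acts with the factors bHLH38, bHLH39, bHLH100 and bHLH101 to raise the ferric reductase FRO2 and the ferrous iron transporter IRT1. The study asked which SOG1-dependent genes respond to aluminium, and the untreated seedlings show which differences between the mutants were already there without it.

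The 6 libraries held 29749623 to 42688929 counts each, and 3 counts, the floor used here for a single library, amounted to 0.0647 to 0.101 counts per 1000000 counts of the library (CPM). Levels below are CPM scaled by TMM, a factor that corrects for differences in composition between libraries. Ribosomal RNA genes took 2.12% to 3.34% of the counts in the als3-1 libraries, against 0.0174%, 2.5% and 5.71% in sog1-7 replicates 2, 3 and 4, so sog1-7 replicate 2 stood apart in that share. ALS3 itself measured 2.56, 3.79 and 3.52 CPM in als3-1 and 1.55, 2.53 and 2.22 CPM in sog1-7, and SOG1 measured 16.2 to 18.9 CPM in als3-1 and 16.6 to 19.5 CPM in sog1-7. Neither gene passed the test (adjusted p = 0.378 and 0.834, edgeR quasi-likelihood test with Benjamini-Hochberg adjustment), and since the lesions are not given, these levels do not check the genotype labels. The SOG1 target SMR7, a cyclin-dependent kinase inhibitor, stood at 0.31 to 1.38 CPM in the 6 libraries, and it differed between the genotypes at 1.5 mM, where als3-1 measured 11.7, 19.2 and 10.7 CPM and sog1-7 0.644, 0.251 and 0.584 CPM. Because whole seedlings were sampled, fewer cells of a type and less RNA per cell cannot be told apart.

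Without aluminium, few genes were called between als3-1 and sog1-7 by the test used here. Of 21650 genes tested, 76 were called at an adjusted p under 0.05 (0.351%), of which 48 were higher in als3-1 (0.222%) and 28 were higher in sog1-7 (0.129%), and 45 of the 76 differed at least 2-fold. The genes higher in als3-1 included ALMT1 and other genes known from aluminium tolerance, the iron uptake genes FRO2 and IRT1, and transporters of potassium, sulfate and metals. The genes higher in sog1-7 were led by QQS and by several non-coding or uncharacterized transcripts of low level. The 3 libraries of one genotype did not overlap those of the other for any of the 76, a pattern that 17.8% of all genes tested showed. Unadjusted p-values under 0.05 were seen for 2597 genes (12.0%), nearly equally divided between the 2 directions (1270 or 5.87% higher in als3-1 and 1327 or 6.13% higher in sog1-7), and the median log2 fold change over all genes was -0.01.

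The number of calls depended on the libraries in the fit, since with 1 library left out it was 24, 27 and 47 without als3-1 replicates 2, 3 and 4 and 31, 14 and 40 without sog1-7 replicates 2, 3 and 4. A fit to the 6 libraries alone called 3 genes, DESeq2 on all 18 libraries called 476, and a fit with the replicate number as a block called 485. No called gene changed sign in any of these fits. The genotypes did not overlap for any of the 76, so leaving out 1 library could hardly reverse a sign, and the other fits reuse the same libraries. The 13 genes that kept their call whichever library was left out were FRO2, ALMT1, SULTR3;5, AAH, QQS, AT2G18480, AT2G43590, AT2G41810, AT4G06835, AT5G66150, AT3G05955, AT2G06995 and AT2G40955.

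ALMT1 (AT1G08430, chromosome 1, 2658602 to 2661310) showed the smallest p-value of the whole comparison. It measured 79.8, 60.6 and 68.1 CPM in als3-1 and 7.18, 11.4 and 10.7 CPM in sog1-7. All 3 als3-1 libraries lay far above the highest sog1-7 library, and the log2 fold change was 2.83 ± 0.19 (SE, n = 3 against 3, adjusted p = 3.41e-06). Wild type measured 10.8, 7.52 and 11.9 CPM, so wild type overlapped sog1-7 (log2 difference -0.05 ± 0.18, adjusted p = 0.905) and als3-1 stood above it (2.78 ± 0.19, adjusted p = 4.48e-06). STOP1 measured 64.3 to 69.8 CPM in als3-1 and 57.4 to 69.5 CPM in sog1-7 and was not called (0.05 ± 0.11, adjusted p = 0.905). The promoter of ALMT1 is printed because the difference at this gene had the smallest p-value, and it covers the 250 bases before the annotated start on the plus strand (RefSeq TAIR10.1, chr1:2658352-2658601).
ALMT1: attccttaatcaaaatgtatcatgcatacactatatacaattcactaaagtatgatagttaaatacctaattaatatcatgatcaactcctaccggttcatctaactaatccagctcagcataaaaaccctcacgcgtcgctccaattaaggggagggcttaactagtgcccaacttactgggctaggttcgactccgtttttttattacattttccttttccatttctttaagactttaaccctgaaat
The window was searched on both strands for TTGAC, the core of the W-box that WRKY factors bind, and for CANNTG, the E-box that bHLH factors bind. It held neither, while 45.2% of 21649 promoter windows of this length held TTGAC and 56.5% held CANNTG. The absence of these letters says nothing about binding elsewhere in the gene.

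Beside ALMT1, 3 further members of the aluminium resistance list were higher in als3-1, and all 3 act in nitrogen or potassium economy. GDH1 (AT5G18170), an NADH-dependent glutamate dehydrogenase, measured 64.8, 54.9 and 64.7 CPM in als3-1 and 33.6, 32 and 34.3 CPM in sog1-7 (log2 fold change 0.88 ± 0.14, adjusted p = 0.00882). POP2 (AT3G22200), the transaminase that degrades GABA, measured 172, 168 and 176 CPM in als3-1 and 117, 119 and 110 CPM in sog1-7 (0.58 ± 0.09, adjusted p = 0.00862). HAK5 (AT4G13420), a high-affinity potassium transporter of the root, measured 9.29, 5.82 and 4.09 CPM in als3-1 and 1.64, 1.99 and 2.15 CPM in sog1-7 (1.74 ± 0.33, adjusted p = 0.0352). For GDH1, wild type lay at 31 to 36.3 CPM and overlapped sog1-7, as for ALMT1. For POP2 it lay between the mutants at 133 to 145 CPM, and for HAK5 it overlapped both at 1.92 to 5.14 CPM. The call of POP2 ended without sog1-7 replicate 3 (adjusted p = 0.0513), that of GDH1 without als3-1 replicate 2 or sog1-7 replicate 3 (0.0511 and 0.0696), and that of HAK5 without any library but als3-1 replicate 4 (0.0996 to 0.192).

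Over the 25 tested members of the aluminium resistance list, 4 were called, all higher in als3-1 (0.222% of all genes were), and the median log2 fold change was 0.40 against -0.01 over all genes. Positive values were seen for 22 of the 25, against 10479 of 21650 genes. Among members that did not pass, GDH2, a second glutamate dehydrogenase, averaged 245 CPM in als3-1 and 144 CPM in sog1-7 (log2 fold change 0.76, adjusted p = 0.0658). The calmodulin-binding factor CAMTA2, which acts on ALMT1, averaged 59.3 and 43.7 CPM (0.44, adjusted p = 0.0675). MATE, the citrate exporter, averaged 6.18 and 3.74 CPM (0.72, adjusted p = 0.221), and STAR1 measured 13 to 15.3 and 10.4 to 13.7 CPM (0.26 ± 0.15, adjusted p = 0.519). LPR1, a ferroxidase of the root tip, was the member with the lowest unadjusted p among those higher in sog1-7, at 6.11 against 8.94 CPM on average (-0.55, adjusted p = 0.233). The list holds genes that earlier results of these data had shown to respond to aluminium, so its direction is not independent evidence.

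**Figure D1:**
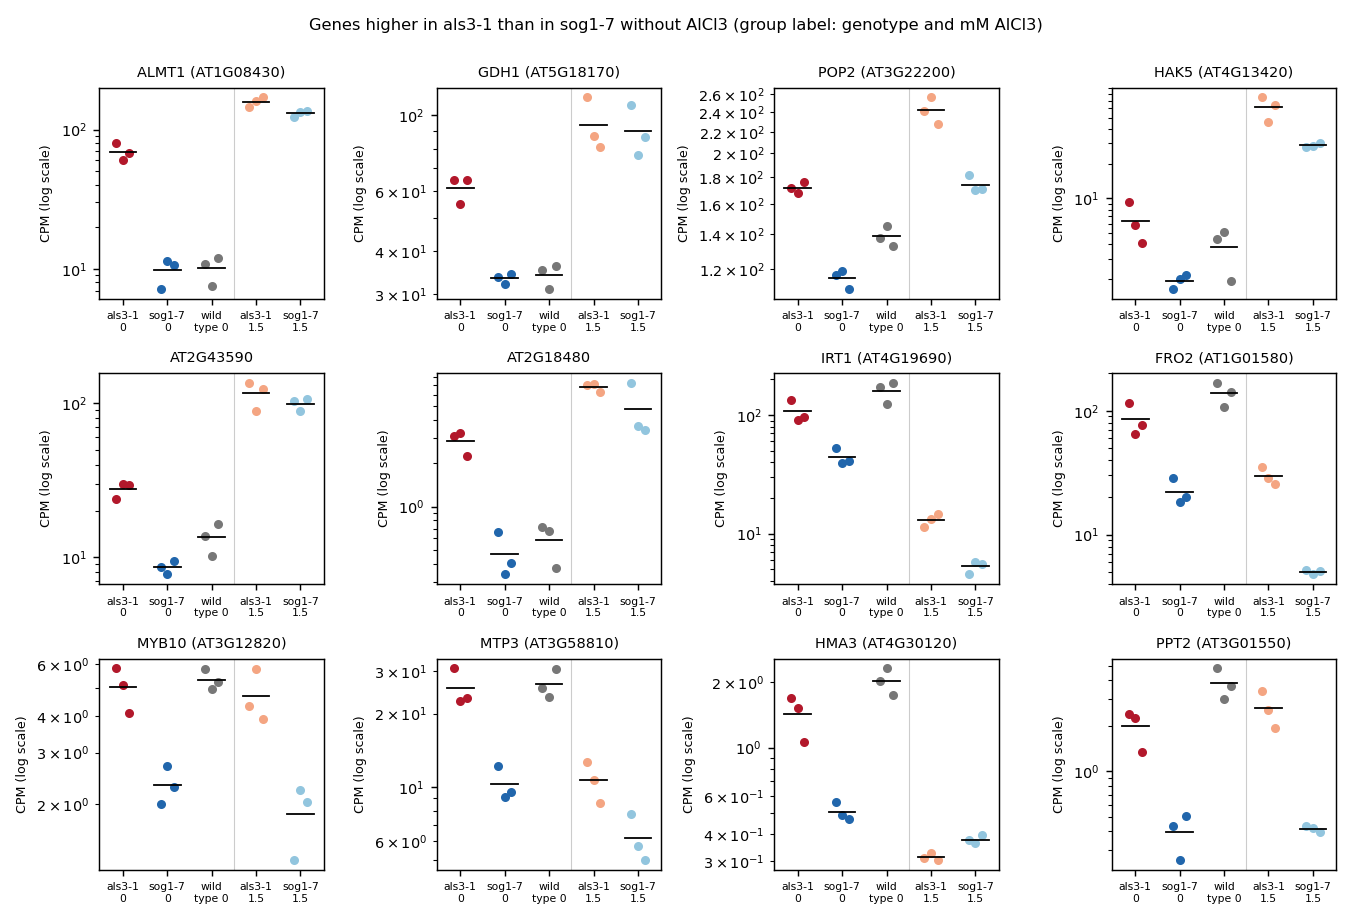
Level of 12 genes called higher in als3-1 without AlCl3, in CPM on log axes, with 1 point per library and a line at the mean of 3 libraries. Labels under each panel give the genotype and the AlCl3 concentration in mM. In every panel the als3-1 points at 0 mM lie above the sog1-7 points at 0 mM, for ALMT1 at 60.6 to 79.8 against 7.18 to 11.4 CPM, while wild type lies near sog1-7 for ALMT1 and GDH1 and near or above als3-1 for IRT1, FRO2, MYB10 and MTP3.

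The iron uptake genes FRO2, IRT1, MTP3 and MYB10 were lower in sog1-7 than in als3-1, and their means in als3-1 were nearer to wild type than those in sog1-7. FRO2 (AT1G01580) measured 115, 64.8 and 76.4 CPM in als3-1, 28.4, 18.2 and 20.1 CPM in sog1-7 and 168, 108 and 143 CPM in wild type. The als3-1 and sog1-7 libraries did not overlap, at a log2 fold change of 1.94 ± 0.23 (adjusted p = 0.00119, n = 3 against 3). IRT1 (AT4G19690) measured 135, 91.1 and 97.3 CPM in als3-1, 53.3, 39.5 and 41 CPM in sog1-7 and 172, 124 and 187 CPM in wild type. Its log2 fold change was 1.27 ± 0.18 (adjusted p = 0.00544), and the call ended without sog1-7 replicate 3 (adjusted p = 0.0513). Against wild type, sog1-7 was lower by a log2 difference of -2.65 ± 0.24 for FRO2 (adjusted p = 3.54e-05) and -1.85 ± 0.18 for IRT1 (adjusted p = 8.15e-05), in a comparison that called 10.2% of genes. The same differences for als3-1 were -0.71 ± 0.22 and -0.58 ± 0.18 and did not pass (adjusted p = 0.114 and 0.102). The comparisons of the 2 mutants with wild type share the wild-type libraries, and each also shares its mutant libraries with the comparison reported here.

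MTP3 (AT3G58810), also named MTPA2, a vacuolar zinc transporter that is raised under iron shortage, measured 30.7, 22.6 and 23.3 CPM in als3-1 and 12.2, 9.12 and 9.51 CPM in sog1-7 (1.31 ± 0.20, adjusted p = 0.00882). MYB10 (AT3G12820), a factor that with MYB72 raises nicotianamine synthesis and coumarin release under iron shortage, measured 5.82, 5.12 and 4.11 CPM in als3-1 and 2, 2.71 and 2.29 CPM in sog1-7 (1.10 ± 0.21, adjusted p = 0.0358). Wild type lay close to als3-1 for both genes, at 23.5 to 30.6 and 4.93 to 5.8 CPM. The call of MTP3 ended without als3-1 replicate 2 or without sog1-7 replicate 3 or 4 (adjusted p = 0.0507 to 0.0708), and that of MYB10 ended without any library but als3-1 replicate 4 (0.0771 to 0.192). HMA3, a gene of the heavy metal pump family, belongs to no list and was chosen after its values were seen. It measured 1.7, 1.53 and 1.06 CPM in als3-1, 0.56, 0.491 and 0.471 CPM in sog1-7 and 1.74 to 2.32 CPM in wild type (1.48 ± 0.23, adjusted p = 0.00862). Its call ended without als3-1 replicate 2 or sog1-7 replicate 3 (0.0511 and 0.0651).

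The promoters of the called iron genes are shown because all 4 were lower in sog1-7 and because bHLH factors are their known regulators. Each line gives the 250 bases before the annotated start, with E-boxes (CANNTG) in capitals. FRO2 lies on the plus strand (chr1:208745-208994), IRT1 on the plus strand (chr4:10707094-10707343), MYB10 on the minus strand (chr3:4075644-4075893) and MTP3 on the plus strand (chr3:21749716-21749965), all in RefSeq TAIR10.1.
FRO2: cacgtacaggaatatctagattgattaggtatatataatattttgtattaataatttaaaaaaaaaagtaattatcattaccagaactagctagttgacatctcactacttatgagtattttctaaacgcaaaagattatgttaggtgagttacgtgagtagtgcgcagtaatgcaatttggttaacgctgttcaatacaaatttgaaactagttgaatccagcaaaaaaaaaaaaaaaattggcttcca
IRT1: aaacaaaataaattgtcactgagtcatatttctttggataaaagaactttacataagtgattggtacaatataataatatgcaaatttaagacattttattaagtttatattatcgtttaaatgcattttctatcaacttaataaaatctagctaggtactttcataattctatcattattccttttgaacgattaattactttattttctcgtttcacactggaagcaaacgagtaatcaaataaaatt
MYB10: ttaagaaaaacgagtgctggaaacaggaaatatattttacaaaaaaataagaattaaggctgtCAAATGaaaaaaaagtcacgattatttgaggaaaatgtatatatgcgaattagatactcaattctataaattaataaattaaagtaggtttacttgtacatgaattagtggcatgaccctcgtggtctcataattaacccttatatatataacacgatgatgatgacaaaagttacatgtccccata
MTP3: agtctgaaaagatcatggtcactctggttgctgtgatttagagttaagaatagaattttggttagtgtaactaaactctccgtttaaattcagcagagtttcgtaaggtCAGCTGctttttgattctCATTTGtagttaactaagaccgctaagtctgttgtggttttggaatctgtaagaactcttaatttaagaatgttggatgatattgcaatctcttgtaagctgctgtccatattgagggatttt
MTP3 held 2 E-boxes and MYB10 held 1 in these windows, FRO2 and IRT1 held 0, and 56.5% of all promoter windows held at least 1. None of the 4 windows held the G-box CACGTG, which is a form of the E-box and was found in 7.29% of all windows.

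Among the 24 tested members of the iron uptake list, 4 were called, all higher in als3-1, against 0.222% of all genes. Positive values were seen for 20 of them (83.3%, against 48.4% of all genes), and the median log2 fold change was 0.93, against -0.01 over all genes. The fit to the 6 libraries alone called 0 members and the fit without sog1-7 replicate 3 called 1. DESeq2 called 7, all higher in als3-1, against 252 of all 21650 genes that it called in that direction. The 4 bHLH factors that act with FIT had larger fold changes than any called member but were not called. BHLH100 measured 309, 263 and 25 CPM in als3-1, 22.8, 18.8 and 1.51 CPM in sog1-7 and 303, 416 and 6.91 CPM in wild type (3.78 ± 1.24, adjusted p = 0.228). In all 3 genotypes replicate 4 was the lowest, and within each replicate number als3-1 stood above sog1-7. The same held for bHLH38, at 134, 136 and 14.9 CPM in als3-1 and 19.2, 26.7 and 3.97 CPM in sog1-7 (2.51 ± 0.96, adjusted p = 0.305). BTS, an E3 ligase that restrains the iron response, measured 874, 812 and 223 CPM in als3-1 and 211, 272 and 140 CPM in sog1-7 (1.62 ± 0.55, adjusted p = 0.244). FIT itself measured 10.1 to 20.3 and 10.4 to 17.4 CPM (0.25 ± 0.31, adjusted p = 0.787), and the proton pump AHA2 averaged 1797 and 1198 CPM (0.59, adjusted p = 0.117). A fit by DESeq2 called BHLH100 and BHLH101 (adjusted p = 0.0479 and 0.0450).

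The summed level of the iron uptake list was 6124, 6561 and 3415 CPM in als3-1, 2561, 3017 and 2439 CPM in sog1-7 and 6024, 7548 and 2925 CPM in wild type. The sums of als3-1 and sog1-7 did not overlap, a pattern that 17.8% of all single genes tested showed. Abundant members weigh most in such a sum, above all AHA2 (1797 and 1198 CPM on average), which was not called. The sums therefore do not show a shift of the list as a whole. No member was called among the 9 of iron storage (median -0.15), where the ferritin FER1 averaged 49.3 CPM in als3-1 and 80.7 CPM in sog1-7 (-0.71, adjusted p = 0.575). None was called among the 10 of coumarin synthesis (median 0.11). There the feruloyl-CoA hydroxylase F6'H1 averaged 50.3 and 25.2 CPM (1.00, adjusted p = 0.0513). CYP82C4, which makes sideretin, averaged 10.5 and 1.22 CPM (3.15, adjusted p = 0.159). DESeq2 called 3 of these 10, all higher in als3-1, against 252 of all 21650 genes that it called in that direction.

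Other genes higher in als3-1 encoded enzymes and transporters that stood apart from these lists. AT2G43590, of the chitinase family, measured 24, 29.8 and 29.5 CPM in als3-1 and 8.58, 7.7 and 9.41 CPM in sog1-7 (1.70 ± 0.18, adjusted p = 0.000538), with wild type between at 10.1 to 16.4 CPM. AT2G18480, a transporter of the major facilitator superfamily, measured 3.09, 3.23 and 2.24 CPM in als3-1 and 0.668, 0.336 and 0.403 CPM in sog1-7 (2.57 ± 0.34, adjusted p = 0.00415), with wild type at 0.372 to 0.716 CPM. For both genes every als3-1 library lay above every wild-type library. PPT2, a plastid translocator of phosphoenolpyruvate, measured 2.41, 2.26 and 1.35 CPM in als3-1 and 0.431, 0.258 and 0.504 CPM in sog1-7 (2.33 ± 0.34, adjusted p = 0.00748), and its call ended without sog1-7 replicate 3 (0.0633). The potassium channel KAT2 (AT4G18290) measured 30.1 to 38.2 and 9.82 to 18.2 CPM (1.36 ± 0.25, adjusted p = 0.0293). The glutathione transferase GSTF7 measured 46.3 to 51.1 and 19.5 to 24 CPM (1.17 ± 0.22, adjusted p = 0.0298), but its near-identical neighbour GSTF6 makes the split of reads uncertain.

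The remaining genes of the largest fold changes in this direction were OSM34, an osmotin (1.28 ± 0.24, adjusted p = 0.0298), AT5G07570, a glycine- and proline-rich protein (1.27 ± 0.24, adjusted p = 0.0347), and AT5G59530, a 2-oxoglutarate-dependent oxygenase (1.26 ± 0.24, adjusted p = 0.0352). The calls of KAT2, GSTF7, OSM34, AT5G07570 and AT5G59530 ended in 4 to 6 of the 6 fits that left out 1 library, where the adjusted p reached 0.13 to 0.192. Outside the rule for named genes, and chosen after their values were seen, 4 more kept their call in all 6 such fits. SULTR3;5, of the sulfate transporter family, measured 27.2, 26.5 and 26.2 CPM in als3-1 and 16, 14 and 11.9 CPM in sog1-7 (0.93 ± 0.13, adjusted p = 0.00544). AAH, the allantoate amidohydrolase that releases nitrogen from purines, measured 45, 36.4 and 33.9 CPM in als3-1 and 18.3, 19.8 and 18.8 CPM in sog1-7 (1.02 ± 0.12, adjusted p = 0.00113). AT2G41810, a protein of unknown function, measured 3.79, 4.29 and 3.28 CPM in als3-1, 0.259, 0.826 and 0.672 CPM in sog1-7 and 0.248 to 0.636 CPM in wild type (2.70 ± 0.39, adjusted p = 0.00698). AT4G06835, a non-coding RNA, measured 2.59, 1.83 and 2.22 CPM in als3-1 and 0.168 to 0.323 CPM in sog1-7 (3.15 ± 0.33, adjusted p = 0.000498). GolS7, a galactinol synthase, had few counts, with 29 over the als3-1 libraries and 1 over the sog1-7 libraries, a ratio of 31.3 (exact 95% interval 5.19 to 1279, counting error only).

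QQS (AT3G30720, chromosome 3, 12349047 to 12349933), an Arabidopsis-specific gene known for its effect on leaf starch, showed the largest fold change of all calls. It measured 0.264, 0.333 and 0.189 CPM in als3-1, 48.2, 24.9 and 26.8 CPM in sog1-7 and 0.875, 1.41 and 0.899 CPM in wild type. The 3 genotypes did not overlap, with als3-1 lowest and sog1-7 highest, and the log2 fold change of als3-1 over sog1-7 was -7.0 ± 0.50 (adjusted p = 3.57e-06). Against wild type, sog1-7 was higher by 4.96 ± 0.43 (adjusted p = 2.96e-05), and als3-1 differed by -2.04 ± 0.55, which did not pass (adjusted p = 0.0644). Without the low-rRNA libraries, of which sog1-7 replicate 2 is 1, the adjusted p of QQS was 4.58e-07.

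Several transcripts of low level, chosen after their values were seen because they lay under the level that the rule for named genes requires, shared this direction. AT3G05955, a non-coding RNA, measured 0.0882, 0.266 and 0.0236 CPM in als3-1, 1.83, 5.4 and 4.64 CPM in sog1-7 and 0.604 to 0.875 CPM in wild type (-5.04 ± 0.70, adjusted p = 0.00533). AT2G06995, another non-coding RNA, measured 0.0294, 0.0666 and 0.0945 CPM in als3-1, 0.862, 3.18 and 2.08 CPM in sog1-7 and 1.59 to 4.06 CPM in wild type (-4.89 ± 0.68, adjusted p = 0.00533). Its summed counts were 7 in als3-1 and 225 in sog1-7, a ratio of 29.8 (exact 95% interval 14.2 to 74.9). AT2G40955, an uncharacterized protein, measured 0.206, 0.133 and 0.213 CPM in als3-1, 1.6, 1.86 and 1.41 CPM in sog1-7 and 0.596 to 1.15 CPM in wild type (-3.10 ± 0.36, adjusted p = 0.00113). For AT3G05955 sog1-7 stood above wild type and als3-1 below, whereas for AT2G06995 the sog1-7 and wild-type libraries overlapped and als3-1 alone was low. The glycine-rich protein AT5G33390 had 5 counts over the als3-1 libraries and 138 over the sog1-7 libraries, a ratio of 25.6 (exact 95% interval 10.7 to 80). For the other 4 calls with 10 or fewer counts in als3-1, AT1G06883, AT1G06963, AT5G15360 and AT2G03821, the ratio of sog1-7 over als3-1 was 6.39, 13.4, 5.87 and 11.7. The exact 95% intervals were 3.27 to 13.9, 4.97 to 50.9, 2.88 to 13.5 and 5.15 to 33. All exact intervals given here cover counting error only, not variation between libraries.

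**Figure D2:**
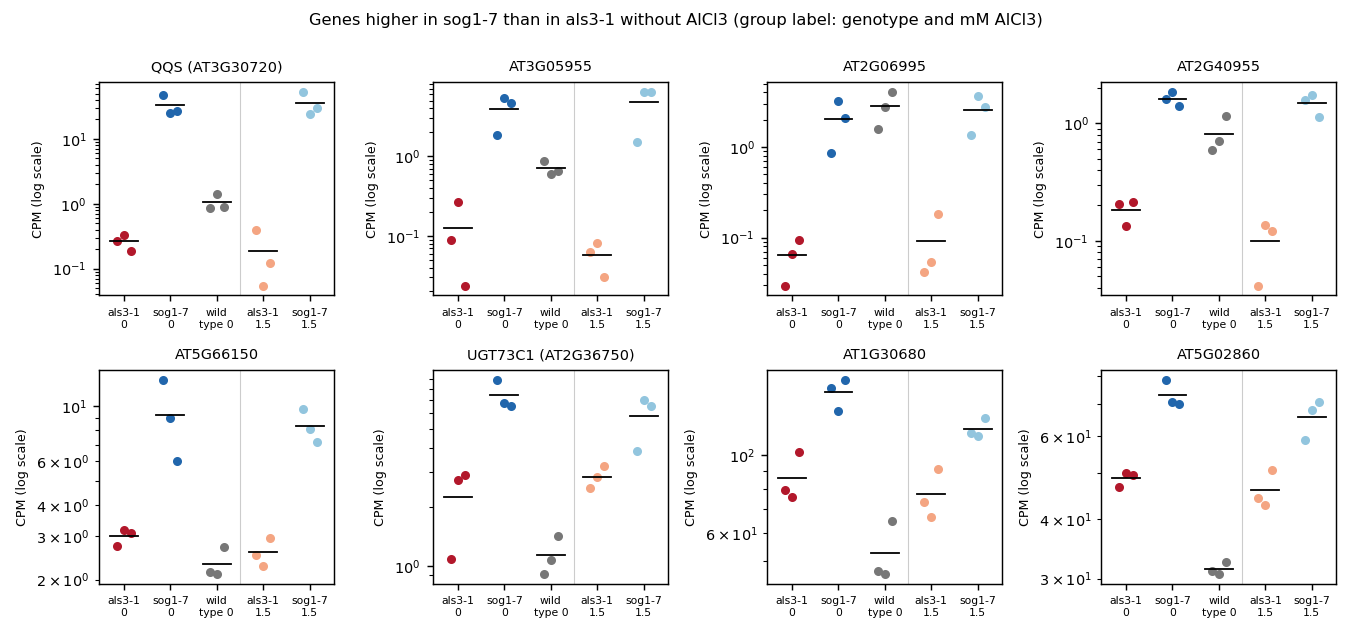
Level of 8 genes called higher in sog1-7 without AlCl3, in CPM on log axes, with 1 point per library and a line at the mean of 3 libraries. QQS lies at 24.9 to 48.2 CPM in sog1-7 and at 0.189 to 0.333 CPM in als3-1 at 0 mM, and the sog1-7 points lie above the als3-1 points in all 8 panels at both concentrations.

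The better expressed genes that were higher in sog1-7 differed less. AT5G66150, an alpha-mannosidase of glycosyl hydrolase family 38, measured 2.73, 3.16 and 3.09 CPM in als3-1 and 12.8, 8.96 and 6.02 CPM in sog1-7 (-1.63 ± 0.22, adjusted p = 0.00492), with wild type at 2.11 to 2.7 CPM. UGT73C1, a glucosyltransferase, measured 1.09, 2.73 and 2.91 CPM in als3-1 and 8.86, 6.79 and 6.49 CPM in sog1-7 (-1.72 ± 0.33, adjusted p = 0.0358), with wild type at 0.914 to 1.43 CPM. AT5G59390, a protein with XH and XS domains, differed by -1.95 ± 0.40 (adjusted p = 0.0484), the peroxidase AT1G68850 by -1.42 ± 0.27 (adjusted p = 0.0342) and the threonine aldolase THA1 by -1.04 ± 0.19 (adjusted p = 0.0293). AT1G30680, whose toprim domain is that of an organellar DNA primase and helicase, measured 79.7, 75.8 and 102 CPM in als3-1 and 155, 133 and 163 CPM in sog1-7 (-0.81 ± 0.16, adjusted p = 0.0381). The plastid glucose-6-phosphate dehydrogenase G6PD4 differed by -0.68 ± 0.14 (adjusted p = 0.0478) and the transcription factor SPL10 by -0.91 ± 0.18 (adjusted p = 0.0395).

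The other 5 genes named by the rule were AT5G16980, a zinc-binding dehydrogenase (-1.03 ± 0.19), AT3G48830, a tRNA nucleotidyltransferase (-0.87 ± 0.16), the SET domain gene SDG38 (-0.77 ± 0.16), AT4G27340, a Met-10+ like protein (-0.76 ± 0.13), and the uncharacterized AT5G48470 (-0.69 ± 0.13), with adjusted p-values of 0.0204 to 0.0472. Apart from QQS and AT5G66150, each of the 14 genes named in this direction lost its call in 4 to 6 of the 6 fits that left out 1 library. Wild type lay below both mutants for 16 of the 28 genes higher in sog1-7, above both for 2 and between them for 10. For the 48 genes higher in als3-1 it lay below both for 8, above both for 16 and between for 24, against 36.9%, 36.8% and 26.4% over all genes. The called genes were selected for a gap between the mutants, which by itself leaves more room for wild type between them. The shares over all genes are therefore not a like background, and no conclusion is drawn from the comparison.

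Photosynthesis genes, the marker of green tissue here, included 2 that differed between the mutants, and their summed level was below wild type in both. RBCS2B, a small subunit of Rubisco, averaged 1803 ± 835 CPM (SD, n = 3) in als3-1 and 333 ± 159 CPM in sog1-7 (2.44 ± 0.40, adjusted p = 0.0129), but near-identical copies of the gene make its share of reads uncertain. LHCB5, an antenna protein of photosystem II, measured 826, 833 and 846 CPM in als3-1 and 446, 471 and 387 CPM in sog1-7 (0.94 ± 0.19, adjusted p = 0.0395). Of the 25 members of the list, these 2 were called, against 0.351% of all genes, 21 were positive (84%, against 48.4% of all genes) and the median log2 fold change was 0.42. The medians against wild type were -1.06 for als3-1 and -1.48 for sog1-7. The list summed to 19495, 34947 and 24580 CPM in als3-1, 20353, 19020 and 12643 CPM in sog1-7 and 50341 to 66092 CPM in wild type, so the sums of the 2 mutants overlapped. The call of RBCS2B ended without als3-1 replicate 3 (0.0721) or sog1-7 replicate 3 (0.0588), and that of LHCB5 without any 1 of the 6 libraries (0.082 to 0.157).

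Among members not called, the early light-induced proteins ELIP1 and ELIP2, which protect against light stress, went the other way, at 37.5 against 121 CPM on average for ELIP2 (-1.69, adjusted p = 0.0874). Over the 18 tested genes that the annotation names as light-harvesting proteins, a family picked after its values were seen, 17 were positive (94.4%, against 48.4% of all genes), 1 was called (0.351% of all genes were) and the median was 0.69. The summed levels of other markers overlapped between the 2 mutants. Root tissue genes summed to 7129, 8119 and 9400 CPM in als3-1 and 6966, 8533 and 9691 CPM in sog1-7, and root hair genes to 563 to 762 and 707 to 821 CPM. Most of the root tissue sum was BGLU23 alone, at 6699 and 6949 CPM on average, so that sum says little about the other members. Genes of reserve mobilisation summed to 3438, 6566 and 6923 CPM in als3-1 and 5095, 8028 and 7596 CPM in sog1-7, against 1613 to 2482 CPM in wild type. Seed protein genes summed to 7.13 to 22.5 CPM in als3-1 and 8.47 to 11.8 CPM in sog1-7. Whether organ proportions or seedling age had a part in the differences was not tested.

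Genes for pentatricopeptide repeat proteins, which process RNA in plastids and mitochondria, were picked as a family after their values were seen. The family was matched by letters in the annotated product. The match also took in other genes, among them SAR1, SAR3 and EBS1 (log2 fold changes -0.09, 0.10 and 0.29). Of the 260 genes so matched and tested, 232 had a negative log2 fold change of als3-1 over sog1-7, with a median of -0.27, while 11171 of all 21650 genes had a negative value. A single member was called, which is near the 0.351% of all genes called. It was AT5G02860, at 46.8, 50.1 and 49.7 CPM in als3-1 and 78.7, 70.6 and 70.1 CPM in sog1-7 (-0.58 ± 0.10, adjusted p = 0.0159). CRR2, a protein of the same kind that matures a plastid transcript but that the annotation names otherwise, was also called (-0.44 ± 0.08, adjusted p = 0.0293). The call of AT5G02860 ended in 5 of the 6 fits that left out 1 library (adjusted p = 0.062 to 0.101). That of CRR2 ended in all 6 (0.0608 to 0.162). DESeq2 called 18 members of the family, all higher in sog1-7. Its background was also larger, at 476 of all 21650 genes, of which 224 were higher in sog1-7. Against wild type the family medians were 0.23 in als3-1 and 0.51 in sog1-7, so the 3 genotypes stood in the order wild type, als3-1, sog1-7 for these medians, which share libraries. The count of negative members was 224 without sog1-7 replicate 2. The reads of 285 plastid and mitochondrial genes were at 0 in every library, so their transcripts could not be set beside these values.

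**Figure D3:**
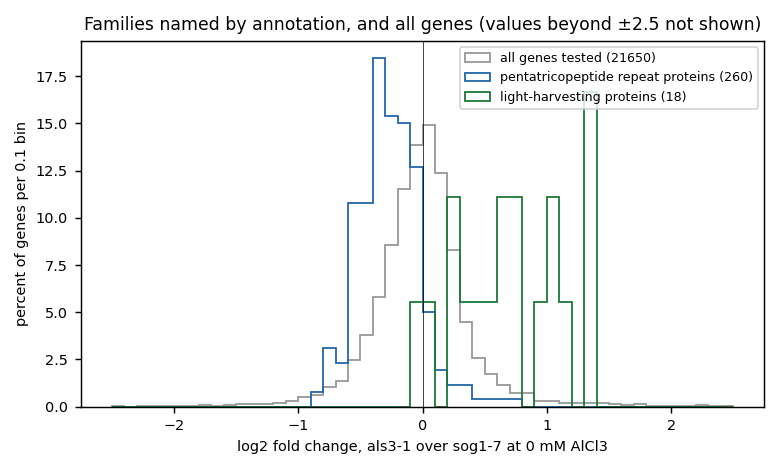
Distribution of log2 fold changes of als3-1 over sog1-7 at 0 mM for all 21650 genes tested, 260 genes matched by annotation letters as pentatricopeptide repeat genes and 18 light-harvesting genes, as percent of genes per bin. The first family lies mostly below 0 (median -0.27) and the second mostly above (median 0.69).

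Genes of the DNA damage response included no call without aluminium, where 0.351% of all genes were called, so that the absence of a call among 34 tested members is near the background. Of the 34, 18 were positive, and the median log2 fold change was 0.04. DESeq2 called 1 of the 34, against 476 of all 21650 genes, so this call was also near the background of its fit. The kinases ATM and ATR measured 55.2 to 73.1 and 21.4 to 31.5 CPM in als3-1 and 55.7 to 62.3 and 14.8 to 32.3 CPM in sog1-7. NAC044 and NAC085, factors that act with SOG1 in the arrest at G2, measured 6.58 to 7.95 and 0.496 to 1.2 CPM in als3-1 and 5.28 to 18.4 and 0.956 to 4.1 CPM in sog1-7, where replicate 4 was the highest for both. The member with the smallest p-value was TIL2, a DNA polymerase epsilon subunit, at 1.6 against 0.592 CPM on average (1.44, adjusted p = 0.0675). The mitotic cyclin CYCB1;1 measured 17.9 to 20.6 and 14.7 to 23 CPM (0.04 ± 0.20, adjusted p = 0.96). At 1.5 mM, where 6.69% of all genes were called, 19 of these 34 genes were called, 18 higher in als3-1 and 1 higher in sog1-7.

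The lists of the cell cycle and the root stem cell niche held no call without aluminium either, which for lists of this size is again near the 0.351% of all genes. The medians were 0.01 over 32 genes of G2/M phase, -0.02 over 19 genes of S phase, -0.15 over 18 genes of the endocycle and 0.06 over 20 genes of the stem cell niche. The summed G2/M level was 1106 to 1128 CPM in als3-1 and 925 to 1323 CPM in sog1-7, against 704 to 877 CPM in wild type. WOX5, which marks the quiescent centre, measured 1.56 to 2.2 and 1.39 to 2.44 CPM, and the root meristem factors PLT1 and PLT2 overlapped between the mutants. ERF115, the regeneration factor named in the title of the study, stood at or below 0.118 CPM in all 6 libraries, close to the floor.

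No member was called among the 29 of phosphate starvation (median 0.11), the 10 of sulfate uptake (0.49), the 8 of heat shock (-0.52) or the 11 wall-associated kinases and glutamate receptors (0.43), and the 17 auxin genes (0.27) also held no call. In the sulfate list APR1, an enzyme of sulfate reduction, averaged 118 and 72 CPM (0.72, adjusted p = 0.129). The 15 genes of oxidative stress held 1 call, GSTF7, and a median of -0.18. Lists of salicylic acid (median 0.12), jasmonic acid (0.36), ethylene (-0.08), abscisic acid (-0.06), glucosinolates (0.10), the circadian clock (-0.14), suberin (-0.08), xylem (0.12), root hairs (-0.04), root tissue (-0.11), seed proteins (-0.18) and reserve mobilisation (-0.14) held no call. For lists of this size, the absence of a call is near the 0.351% of all genes called and does not show that the genotypes were alike.

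**Figure D4:**
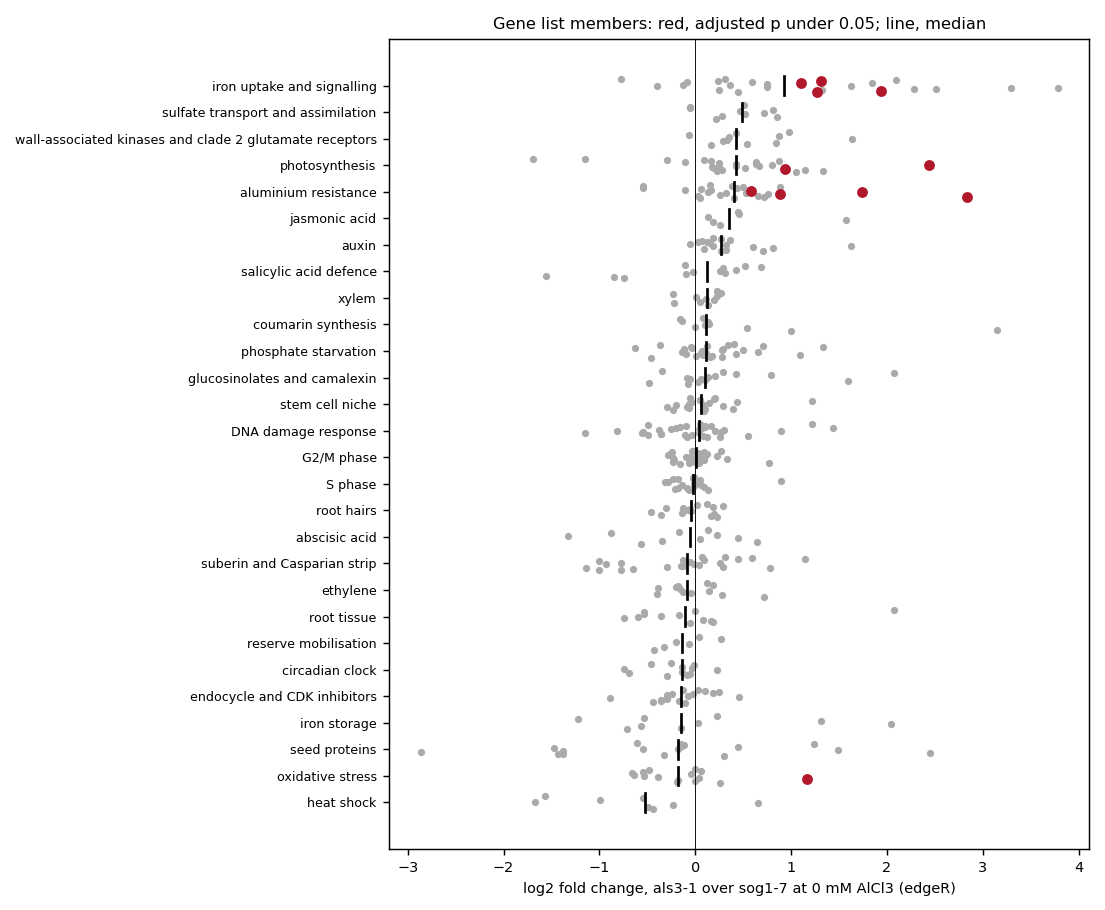
Log2 fold change of als3-1 over sog1-7 at 0 mM for every tested member of the 28 gene lists, with 1 point per gene, called genes in red and the list median as a black line. The iron uptake list has the highest median (0.93) and the heat shock list the lowest (-0.52), and the red points lie to the right of 0 in the 4 lists that hold any.

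The same contrast at 1.5 mM AlCl3 rests on 6 other libraries and gave 1448 calls (6.69%). Of the 76 genes called at 0 mM, 37 were called there in the same direction, which is 48.7% of the 0 mM calls and 2.56% of the 1.5 mM calls, and 66 kept their sign. QQS differed by -7.43 ± 0.51 at 1.5 mM (adjusted p = 3.82e-06), AT3G05955 by -6.26 ± 0.75, AT2G06995 by -4.84 ± 0.64 and AT4G06835 by 3.74 ± 0.34, and for none of the 4 did the interaction test find a change from the value without aluminium (adjusted p of at least 0.878). FRO2 differed by 2.58 ± 0.24 (adjusted p = 1.68e-05) and IRT1 by 1.31 ± 0.19 (adjusted p = 0.000567), although both genes were lower in each mutant with aluminium than without (adjusted p of at most 0.000501). FRO2 measured 25.6 to 35.2 CPM in als3-1 and 4.76 to 5.17 CPM in sog1-7 at 1.5 mM. The single gene called in opposite directions was AT3G22250, a glycosyltransferase, at 1.77 ± 0.29 without aluminium and -1.25 ± 0.30 with it.

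The difference between the mutants changed with aluminium for 13 of the 76 genes by the interaction test, against 1.15% of all genes (0.277% with a positive and 0.873% with a negative change). For ALMT1, 1.5 mM brought als3-1 to 144, 160 and 170 CPM and sog1-7 to 122, 134 and 135 CPM, and the difference between them no longer passed (0.27 ± 0.18, adjusted p = 0.44). The change of the difference was -2.56 on the log2 scale (adjusted p = 0.000251). The 2 mutants overlapped at 1.5 mM for GDH1 (0.05 ± 0.14, adjusted p = 0.896), AT2G43590 (0.22 ± 0.17, adjusted p = 0.543), AT2G18480 (0.51 ± 0.29, adjusted p = 0.359) and SULTR3;5 (0.07 ± 0.13, adjusted p = 0.858), and each of these differences had changed (adjusted p = 0.00708 to 0.0496). For all 5 genes sog1-7 was raised by aluminium (adjusted p of at most 0.000259), and als3-1 without aluminium stood above untreated wild type (adjusted p of at most 0.00903, in a comparison that called 2.32% of genes). The interaction test uses the 0 mM libraries that gave the calls, so it is not independent of them, and without the low-rRNA libraries 6 calls at 0 mM showed such a change.

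**Figure D5:**
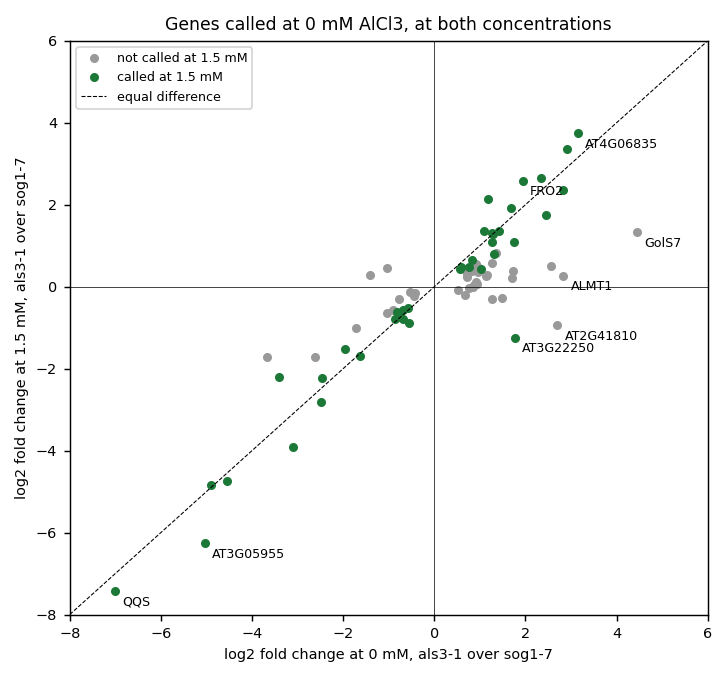
Log2 fold change of als3-1 over sog1-7 at 0 mM (horizontal) and 1.5 mM AlCl3 (vertical) for the 76 genes called at 0 mM, with green points for those also called at 1.5 mM and a dashed line of equal differences. QQS (-7.0 and -7.43) lies near the dashed line and ALMT1 (2.83 and 0.27) far under it.

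The called genes were spread over the 5 chromosomes, at 0.257% to 0.401% of the genes tested on each. Within 2 Mb of SOG1, 2 of 781 genes were called (0.256%), and within 2 Mb of ALS3, 3 of 931 (0.322%), shares near that of the whole comparison. They were SPL10 and AT1G30680 near SOG1, and AT2G41810, UGT73C1 and AT2G40955 near ALS3. Of these, AT2G41810 and AT2G40955 kept their call whichever library was left out. Whether their position had a part in the differences was not tested.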

How the data were processed

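Per the labels' protocols, mRNA of whole seedlings went into directional libraries. The deposited count files hold raw reads for each gene, for which the submitters' processing notes name STAR 2.7.3a and featureCounts 2.0.0 on TAIR10. The deposited FPKM values are fragments scaled by gene length and library total, for which the notes name Cufflinks 2.2.1. The same notes name FastQC 0.11.7 and DESeq2 1.36.0. Whether the counting used strand, how it treated multi-mapping reads and which annotation it used is not given in the sources used here, so antisense, overlapping and near-identical genes are uncertain. Of 32538 loci in both the FPKM files and the RefSeq TAIR10.1 annotation, 32519 had the same start and end (99.94%), and gene names came from that annotation.

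Counts were tested with edgeR 4.0.16 in R 4.3.3 (TMM, filterByExpr by group, robust quasi-likelihood, a mean for each of the 6 groups of all 18 libraries, which held 25561124 to 44572947 counts), with calls at an adjusted p (Benjamini-Hochberg) under 0.05. The filter left 21650 of 32833 genes, and the common biological coefficient of variation was 0.214. CPM is per effective library size, values are given in the order of replicates 2, 3 and 4 where 3 are listed, and errors are SE for log2 fold changes and SD for levels. Calls with 10 or fewer summed counts in a genotype also have the ratio of their sums, with its exact 95% interval, which covers counting error only. Alternatives used DESeq2 1.42.0, other scalings and filters, limma 3.58.1 on log2(FPKM + 1) and log2(FPKM + 0.1), a fit to the 6 libraries, leaving out each library in turn, leaving out the 3 libraries with under 0.5% of counts on 4 ribosomal RNA genes (the low-rRNA libraries, als3-1 1.5 mM replicate 2 and sog1-7 replicate 2 at both concentrations), and the replicate number as a block. Exact permutation of 3 against 3 libraries cannot go below p = 0.1 and was not used. Within a group of the comparison no library was a copy of another, since the chi-square per degree of freedom of each pair was 42.32 or more over genes with at least 20 counts.

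On data simulated for the 0 mM comparison (21443 genes), the test called 73 of 100 genes changed 2-fold, 99 of 100 changed 4-fold and 2 of 21243 unchanged genes. The simulated libraries were drawn independently, and only genes of at least 2 CPM on average were changed. These shares therefore do not carry over to genes of lower level, which 20 of the 76 calls were (average log CPM under 1), or to variation that libraries share. Named genes were the 14 largest fold changes in each direction among calls whose genotypes did not overlap and whose average log CPM reached 1, called members of the 28 gene lists, genes at 1 CPM or more in every library of 1 genotype and at most 0.1 in the other (there were 0), and the regulators of each list. Of 482 list members, 472 were kept because symbol and identifier matched the annotation or, for 23 entered by identifier, the identifier was in the files. The members and lists were chosen with earlier results of these data known. SMR5, one of the regulators, did not pass the filter.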

Additional observations from a re-analysis of the deposited data

Results flagged for a closer look

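Among the genes called at 0 mM and the named regulators, 17 were genes for which the difference between als3-1 and sog1-7 changed between 0 and 1.5 mM AlCl3 by the interaction test of edgeR (adjusted p under 0.05, reached by 249 of 21650 genes or 1.15%). The values below are the change of the log2 fold change of als3-1 over sog1-7 from 0 to 1.5 mM, so a negative value means that als3-1 lost ground to sog1-7 with aluminium. Their explanation was not tested.

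Of genes higher in als3-1 without aluminium, the change was -2.56 for ALMT1, -2.06 for AT2G18480, -1.48 for AT2G43590, -1.56 for AT5G07570, -0.83 for GDH1, -0.86 for SULTR3;5, -0.85 for AT5G37740, -3.02 for AT3G22250, -0.88 for AT2G17500, -3.64 for AT2G41810 and -1.75 for HMA3. AT2G41810 stood at 3.28 to 4.29 CPM in als3-1 without aluminium and at 0.0543 to 0.121 CPM with it, and HMA3 at 1.06 to 1.7 and 0.304 to 0.326 CPM. Of genes higher in sog1-7 without aluminium, the change was 1.72 for the peroxidase AT1G68850 and 1.49 for THA1.

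Of regulators that were not called at 0 mM, the change was 5.14 for SMR7 and 2.91 for ERF114, both of which rose in als3-1 with aluminium. It was -1.74 for PLT1 and -1.31 for PLT2, the factors of the root meristem, which at 1.5 mM were lower in als3-1 than in sog1-7 (log2 fold changes of -1.97 and -0.92).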

How the results depend on the processing

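Each gene called at 0 mM had the same direction in every alternative that gave it a value, while the number of calls varied. That direction was nearly fixed in advance, since the genotypes did not overlap for any call and the alternatives reuse the same libraries. Without any 1 of the 6 libraries, calls numbered 14 to 47 in place of 76 (9 to 34 higher in als3-1 and 5 to 13 higher in sog1-7). The genes also called at 1.5 mM numbered 8 to 30 in place of 37, and those whose difference changed with aluminium 3 to 7 in place of 13. Without the low-rRNA libraries 64 genes were called, 39 of them among the 76, and 6 calls changed with aluminium. The 6 libraries alone gave 3 calls (2 higher in als3-1 and 1 higher in sog1-7), limma on log2(FPKM + 1) gave 29 (14 and 15) and on log2(FPKM + 0.1) gave 19 (11 and 8), while DESeq2 gave 476 (252 and 224), with 242 also called at 1.5 mM and 42 that changed with aluminium. All 76 calls were among those of DESeq2. The cause of these differences was not tested, beyond the smaller number of libraries in the fits that leave some out. Other scaling, removal of ribosomal RNA genes and other filters gave 73 to 83 calls.

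With the replicate number as a block, 485 genes were called (258 higher in als3-1 and 227 higher in sog1-7), 285 of them also at 1.5 mM, and 33 changed with aluminium, and all 76 were included. The block also raised calls in the lists of iron uptake from 4 to 7, of coumarin synthesis from 0 to 3 and of DNA damage response from 0 to 1, and among genes matched as pentatricopeptide repeat genes from 1 to 19. In this fit 2.24% of all genes were called, so the 1 call among DNA damage genes was near the background. Deviations of same-numbered als3-1 and sog1-7 libraries correlated at 0.0916, 0.324 and 0.363 for numbers 2, 3 and 4. Each library correlated best with its own number, a hint from the data, but number 2 lay under 0.1, so the numbers were not taken as pairing the samples. At this depth, differences between levels under 0.0647 to 0.101 CPM in a library were not detectable.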
